A study of Homo sapiens with 54 samples.

Results

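Enzalutamide is a drug that blocks the androgen receptor, and tumours that first respond to it can grow back while it is still given. The gene expression of 27 of the 54 tumours of the study bears on that relapse, namely the 15 tumours that had relapsed on enzalutamide (ENZR) and the 12 that were still responding to it (ENZS). They were chosen by the sample group in the labels, and no measured value was used to choose them. All 27 grew from clone FGC of LNCaP, a human prostate cancer cell line whose growth depends on androgens, injected under the skin of the flank of male NOD-SCID mice. The mice were 5 to 6 weeks old when sourced and lack working T and B cells. Every mouse of both groups was castrated at a tumour size of about 200 mm3, and received 10 mg/kg enzalutamide by gavage on 5 days per week from the time its serum PSA began to rise again. ENZS tumours were taken when PSA was at its second low point under the drug. ENZR tumours were taken when PSA had returned to its level before the drug, or when the tumour had reached 1000 mm3. The groups therefore differ in the point of treatment at which they were taken as well as in response. Time on the drug and tumour size at collection are not given per tumour and may also differ, and these cannot be told apart. Both are a model from 1 cell line in hosts without adaptive immunity. Tumours of mock-operated mice (PRE-CX, n = 9) and tumours that had relapsed after castration alone (CRPC, n = 10) are given beside them, without a test, as are, for spread and in a plot, tumours taken at the PSA low after castration (POST-CX, n = 8). Tumours are named by the number of their mouse.

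The androgen receptor is a transcription factor that moves to the nucleus when it binds androgen, and in prostate epithelium it switches on genes such as KLK3, which encodes PSA. In LNCaP cells it also supports entry into the cell cycle. Genes of the cell cycle are switched on in waves, with E2F factors acting on genes of DNA replication and a later complex acting on genes of mitosis through a short promoter element called the cell cycle homology region. The glucocorticoid receptor, encoded by NR3C1, binds many of the same DNA sites as the androgen receptor.

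Values were TPM, a measure of transcript abundance relative to all transcripts of a tumour. The human genes made up 70.8% to 95.5% of the total in ENZS and 66.7% to 94.9% in ENZR, except in ENZR mouse 87, where they made up 12.1%. Each tumour was rescaled to a human total of 1000000 TPM, and between 15294 and 16742 genes then reached 1 TPM in a tumour. The LNCaP label was checked with 12 markers of these cells, whose summed level was 6014 to 9842 TPM in ENZS (median 7244) and 3432 to 10458 TPM in ENZR (median 5425). A sum relative to the human total does not measure the number of LNCaP cells. Whether fewer cells expressed these markers or each cell held less of their RNA cannot be told apart in bulk tumours. The summed level of 18 markers of basal, stromal, endothelial and blood cells was 25.6 to 301 TPM in ENZS (median 57.9) and 14.5 to 98.0 TPM in ENZR (median 71.0), and TP63, KRT5, PECAM1, CDH5 and PTPRC were among the 8 under 1 TPM in every tumour of both groups. Stroma, vessels and blood of the host are mouse cells and the values are those of human genes, so these markers cannot measure host cells. The value of CD68, a macrophage gene, was 45.6 TPM in mouse 87 and at most 11.3 TPM in ENZS. The part of CD68 in the results was not tested.

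No single gene separated relapse from response once all genes were tested together. Of 17342 genes tested with limma, 0 (0%) passed an adjusted p under 0.05, with or without a limit on the size of the difference, and the lowest adjusted p was 0.500. At an unadjusted p under 0.05 there were 1238 genes (7.14%), of which 272 (1.57%) had a higher level in ENZR and 966 (5.57%) a lower one. This balance depended on the processing. The share on the higher side was 22.0% here, 37.5% with each tumour centred on its median gene and 3.72% with the TPM as deposited. It was 33.5% without mouse 87 and 48.9% with tumours weighted by how closely they followed their group mean in these data. Over all genes, 39.2% had a positive difference and 60.8% a negative one, with a median of -0.04 on the log2(TPM + 1) scale, the scale of all differences given here. The 95% interval reached a median of 0.272 to either side of the difference, and for 95.2% of genes the whole interval lay between -1 and 1. A difference of at least 1 in either direction was measured for 11 higher genes (0.0634%) and 19 lower ones (0.11%). The groups of genes described next are therefore given by their counts, medians and ranges, and no member of them passed the test.

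Genes of mitosis, DNA replication and DNA repair mostly had higher means in ENZR. All 55 tested genes of mitosis and the spindle had a higher mean in ENZR, against 39.2% of all genes, with a median difference of 0.61. Of these, 13 were past an unadjusted p of 0.05 against the 1.57% of all genes. Of 40 DNA replication genes 39 were on the higher side (median 0.35) and 11 were past the unadjusted p. Of 30 genes of homologous recombination and the DNA damage response 29 were on the higher side (median 0.29) and 7 were past it. These counts depended on single tumours and on scaling. Leaving out 1 tumour gave 3 (without ENZR mouse 75) to 44 (without ENZS mouse 45) mitosis genes past the unadjusted p, and 37 without mouse 87. For replication the count lay between 7 (without ENZS mouse 49 or ENZR mouse 75, 94, 100 or 104) and 20 (without ENZR mouse 98), with 19 without mouse 87, and for homologous recombination between 2 (without ENZS mouse 28 or 79 or ENZR mouse 75, 94 or 104) and 9. With TPM as deposited the counts were 7, 1 and 2, and with all 54 tumours in the fit 41, 19 and 7. None of these 3 families turned to a negative median under any scaling, including the TPM as deposited (0.51 for mitosis and 0.19 for replication), where the median of all genes was -0.20.

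Because members of these families share a direction, 6 promoters of named members that hold such motifs are shown, with 250 bases before and 50 after the start of transcription, as listed by RefSeq for GRCh38.p14. Capitals mark the motifs searched on both strands, which were TTTGAA (the core of the cell cycle homology region), CCAAT, TTTGGCGC and TTTCCCGC (E2F) and AGAACA (the core of androgen response elements). Matches can share letters with each other. MKI67 encodes the proliferation marker Ki-67, ECT2 a factor of cell division and KIF18A a kinesin of the spindle, and each of these promoters holds TTTGAA and CCAAT (chr10:128126374-128126673, minus strand, then chr3:172750476-172750775, plus strand, and chr11:28108107-28108406, minus strand).
MKI67: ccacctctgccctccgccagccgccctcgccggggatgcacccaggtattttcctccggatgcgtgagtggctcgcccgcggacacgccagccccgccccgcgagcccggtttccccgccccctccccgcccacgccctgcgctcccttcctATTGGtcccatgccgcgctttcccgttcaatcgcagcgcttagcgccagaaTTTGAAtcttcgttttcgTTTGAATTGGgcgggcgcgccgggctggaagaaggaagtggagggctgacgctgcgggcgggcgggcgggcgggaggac
ECT2: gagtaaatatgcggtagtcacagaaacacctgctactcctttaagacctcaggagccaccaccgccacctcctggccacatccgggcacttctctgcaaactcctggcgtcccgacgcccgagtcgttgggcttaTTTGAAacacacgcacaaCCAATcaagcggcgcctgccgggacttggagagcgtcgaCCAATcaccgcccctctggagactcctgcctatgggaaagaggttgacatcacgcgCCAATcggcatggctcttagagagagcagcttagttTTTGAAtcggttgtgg
KIF18A: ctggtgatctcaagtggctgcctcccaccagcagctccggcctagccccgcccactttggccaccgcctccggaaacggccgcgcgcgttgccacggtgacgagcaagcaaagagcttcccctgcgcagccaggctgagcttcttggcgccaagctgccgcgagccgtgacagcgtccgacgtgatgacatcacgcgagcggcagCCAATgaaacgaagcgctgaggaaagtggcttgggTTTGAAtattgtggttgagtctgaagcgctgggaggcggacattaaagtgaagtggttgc
LIG1 encodes the DNA ligase that joins replication fragments and MCM7 a subunit of the replicative helicase, and both promoters hold TTTCCCGC once (chr19:48170295-48170594 and chr7:100101348-100101647, both minus strand).
LIG1: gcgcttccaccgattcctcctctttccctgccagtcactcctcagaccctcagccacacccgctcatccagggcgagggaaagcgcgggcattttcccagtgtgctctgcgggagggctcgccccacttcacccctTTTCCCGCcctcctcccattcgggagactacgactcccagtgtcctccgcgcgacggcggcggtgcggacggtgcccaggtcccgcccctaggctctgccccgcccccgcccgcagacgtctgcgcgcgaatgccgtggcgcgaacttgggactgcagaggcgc
MCM7: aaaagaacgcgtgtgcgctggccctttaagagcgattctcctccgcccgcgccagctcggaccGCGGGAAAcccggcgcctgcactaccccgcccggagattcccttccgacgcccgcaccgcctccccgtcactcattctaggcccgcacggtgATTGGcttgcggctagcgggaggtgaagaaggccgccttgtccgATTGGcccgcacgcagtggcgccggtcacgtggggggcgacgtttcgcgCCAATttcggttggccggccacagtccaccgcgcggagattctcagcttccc
HSPA5 encodes the main chaperone of the endoplasmic reticulum, and its promoter holds CCAAT or its complement 5 times (chr9:125241294-125241593, minus strand).
HSPA5: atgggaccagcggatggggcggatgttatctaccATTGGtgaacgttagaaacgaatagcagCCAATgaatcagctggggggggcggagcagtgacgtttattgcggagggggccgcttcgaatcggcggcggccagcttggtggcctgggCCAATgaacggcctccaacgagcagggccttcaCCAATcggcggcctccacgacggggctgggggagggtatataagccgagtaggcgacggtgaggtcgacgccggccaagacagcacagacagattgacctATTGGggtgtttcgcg

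RefSeq promoters were at hand for 10916 of the genes tested. TTTGAA was found in 33 of 47 mitosis promoters (70.2%) and in 9.64% of all tested promoters, and TTTGAA together with CCAAT in 55.3% and 4.14%. Either E2F motif was found in 16 of 36 DNA replication promoters (44.4%), in 3 of 47 mitosis promoters (6.38%) and in 3.66% of all. For homologous recombination, TTTGAA was found in 2 of 25 promoters (8.00%) and either E2F motif in 3 (12.0%). CCAAT was found in 21 of 25 promoters of endoplasmic reticulum folding genes (84.0%) and in 37.1% of all. It was also found in 36 of 47 mitosis promoters (76.6%) and 15 of 20 cholesterol synthesis promoters (75.0%), so it did not follow the direction of a family. AGAACA was found in 3 of 24 promoters of androgen-induced genes (12.5%) and in 9.16% of all. These are matches of letters in a short window and not measured binding.

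Per tumour, the level of a family was taken as the mean log2(TPM + 1) of its tested members. For mitosis it was 2.21 ± 0.77 in ENZS (SD, n = 12) and 2.84 ± 0.96 in ENZR (n = 15), with a range of 1.27 to 3.57 in ENZS and 1.28 to 4.36 in ENZR. The groups overlapped over most of that range, and 4 relapsed tumours (mice 104, 75, 94 and 100) lay above every responding one. The same 4 tumours lay above every ENZS tumour in DNA replication, where the level was 3.49 ± 0.32 in ENZS and 3.86 ± 0.60 in ENZR. The mitosis level averaged 4.19 in CRPC and 4.74 in PRE-CX, so the mean of ENZR lay nearer to ENZS than to either. Mice 98 (1.28) and 87 (1.60) were at the low end of ENZR, inside the ENZS range.

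**Figure D1:**
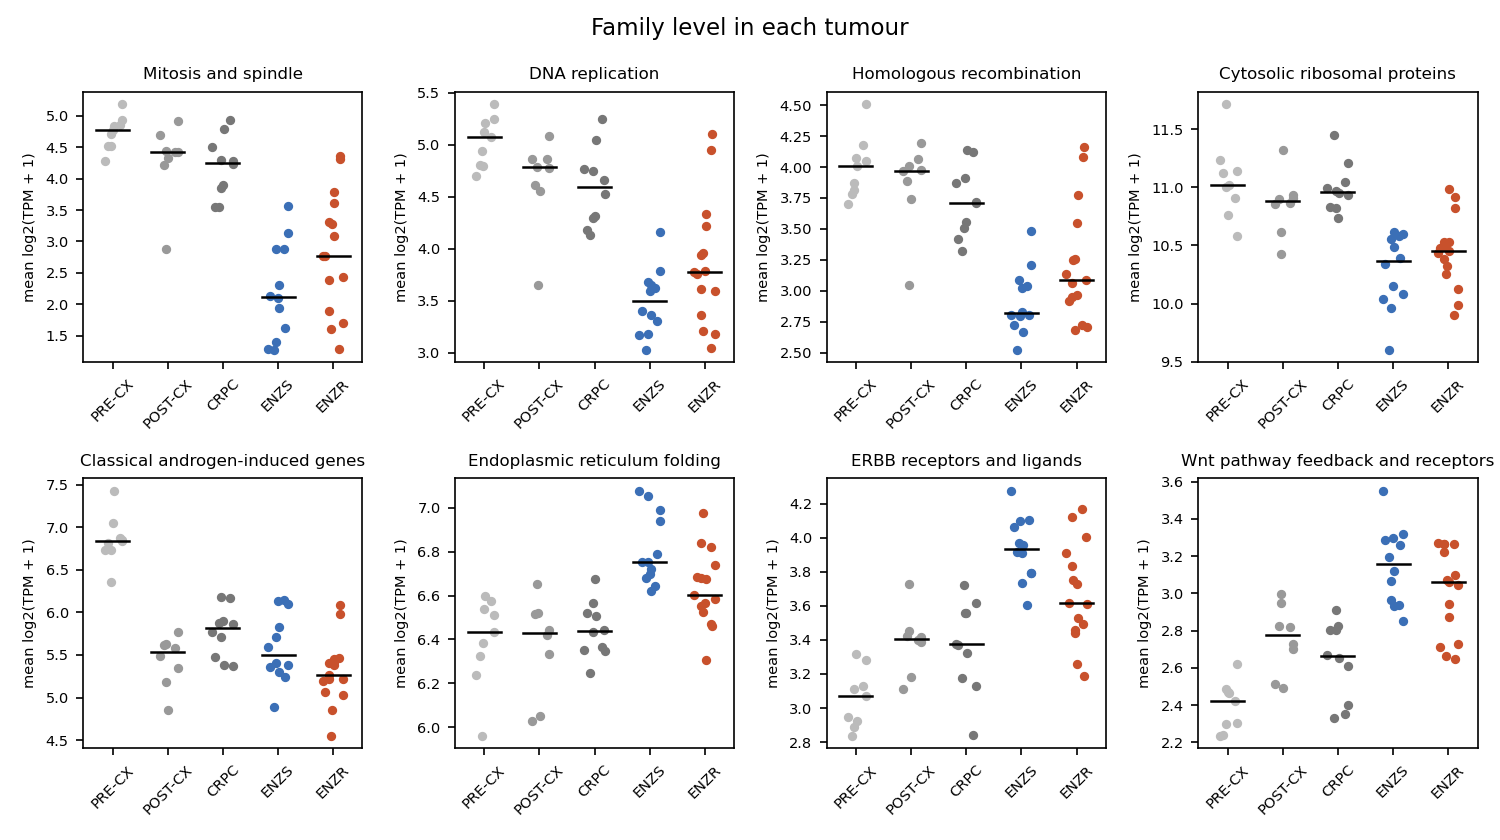
Level of 8 gene families in each of the 54 tumours (mean log2(TPM + 1) over the tested members, 1 point per tumour, line at the group median), for PRE-CX, POST-CX (tumours taken at the PSA low after castration), CRPC, ENZS and ENZR. The 4 highest ENZR tumours lie above all ENZS tumours for mitosis and DNA replication, while the remaining ENZR tumours overlap with ENZS.

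FANCA, a scaffold of the Fanconi anaemia pathway that repairs crosslinked DNA (chr16:89737549-89816647), had the lowest p of the genes on the higher side with a mean of at least 5 TPM. Its level was 1.57 to 6.24 TPM in ENZS (median 3.18) and 3.15 to 17.3 TPM in ENZR (median 6.17). The ranges overlapped, with 7 of 15 relapsed tumours above every responding one and 14 of 15 above the ENZS median. The difference was 0.86 (SE 0.18, adjusted p = 0.500 by limma), and the adjusted p lay between 0.0902 and 0.836 over all alternatives tried. The median was 8.86 TPM in CRPC and 13.0 TPM in PRE-CX.

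BRCA2, which acts in the repair of broken DNA (chr13:32315077-32400268), was measured at 0.217 to 5.54 TPM in ENZS (median 1.14) and at 1.32 to 8.42 TPM in ENZR (median 3.19). All 15 relapsed tumours were above the ENZS median, and 2 were above the highest ENZS tumour (mouse 45). The difference was 0.88 (SE 0.22, adjusted p = 0.592). BRCA1, its partner in the same repair pathway, had a median of 2.25 TPM in ENZS and 3.76 TPM in ENZR with a difference of 0.66 (SE 0.29), and 5 relapsed tumours lay above the ENZS range.

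Among the genes of DNA synthesis, LIG1 had 7 and MCM7 had 9 of 15 ENZR tumours above the highest ENZS tumour. The median of MCM7 was 35.0 TPM in ENZS and 48.8 TPM in ENZR (difference 0.44, SE 0.14, adjusted p = 0.609), and that of LIG1 was 6.19 and 8.31 TPM (difference 0.54, SE 0.16, adjusted p = 0.609). SKP2, the substrate subunit of the ligase that degrades the cell cycle inhibitor p27, also had 9 relapsed tumours above the ENZS range, with medians of 7.32 and 10.4 TPM. NCAPH, a subunit of condensin that compacts mitotic chromosomes, had medians of 4.23 and 6.56 TPM and a difference of 0.78 (SE 0.24, adjusted p = 0.609).

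MKI67 was measured at 0.359 to 5.83 TPM in ENZS (median 1.71) and at 1.12 to 13.1 TPM in ENZR (median 3.10). Mice 104 (13.1), 75 (11.5) and 94 (6.43) were above every ENZS tumour, and the median was 9.37 TPM in CRPC. The difference was 0.69 (SE 0.30, adjusted p = 0.690). FOXM1, a transcription factor of mitotic genes named here after its values were seen, had a median of 4.35 TPM in ENZS and 10.9 TPM in ENZR (difference 0.95, SE 0.42, adjusted p = 0.692). MYC, which drives growth and ribosome assembly, was measured at 7.38 to 65.5 TPM in ENZS and 10.7 to 133 TPM in ENZR, with 5 relapsed tumours above the ENZS range (difference 0.61, SE 0.34, adjusted p = 0.711).

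Ribosomal protein genes differed little but in the same direction, with 77 of 79 on the higher side, against 39.2% of all genes, and a median of 0.16. None was past the unadjusted p, and with TPM as deposited the median turned to -0.05 and only 19 remained on the higher side, against a shift of all genes to -0.20. RSEM divides reads between these genes and their processed pseudogenes, so the value of each single gene is uncertain. Of 38 genes of ribosome biogenesis 33 were on the higher side with a median of 0.11, which turned to -0.07 as deposited. Other genes with the lowest p on the higher side were DDB2, a sensor of ultraviolet damage and a target of p53 (difference 0.55, SE 0.16), the RNA helicase DDX39A (0.34, SE 0.10), the calcineurin inhibitor CABIN1 (0.32, SE 0.09), the clathrin adaptor HIP1 (0.44, SE 0.13), the mitochondrial GTPase MTG1 (0.31, SE 0.09), the mitochondrial reductase FDXR (0.33, SE 0.11) and the non-coding RNA LINC01001 (0.41, SE 0.10). Their adjusted p lay between 0.592 and 0.609.

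**Figure D2:**
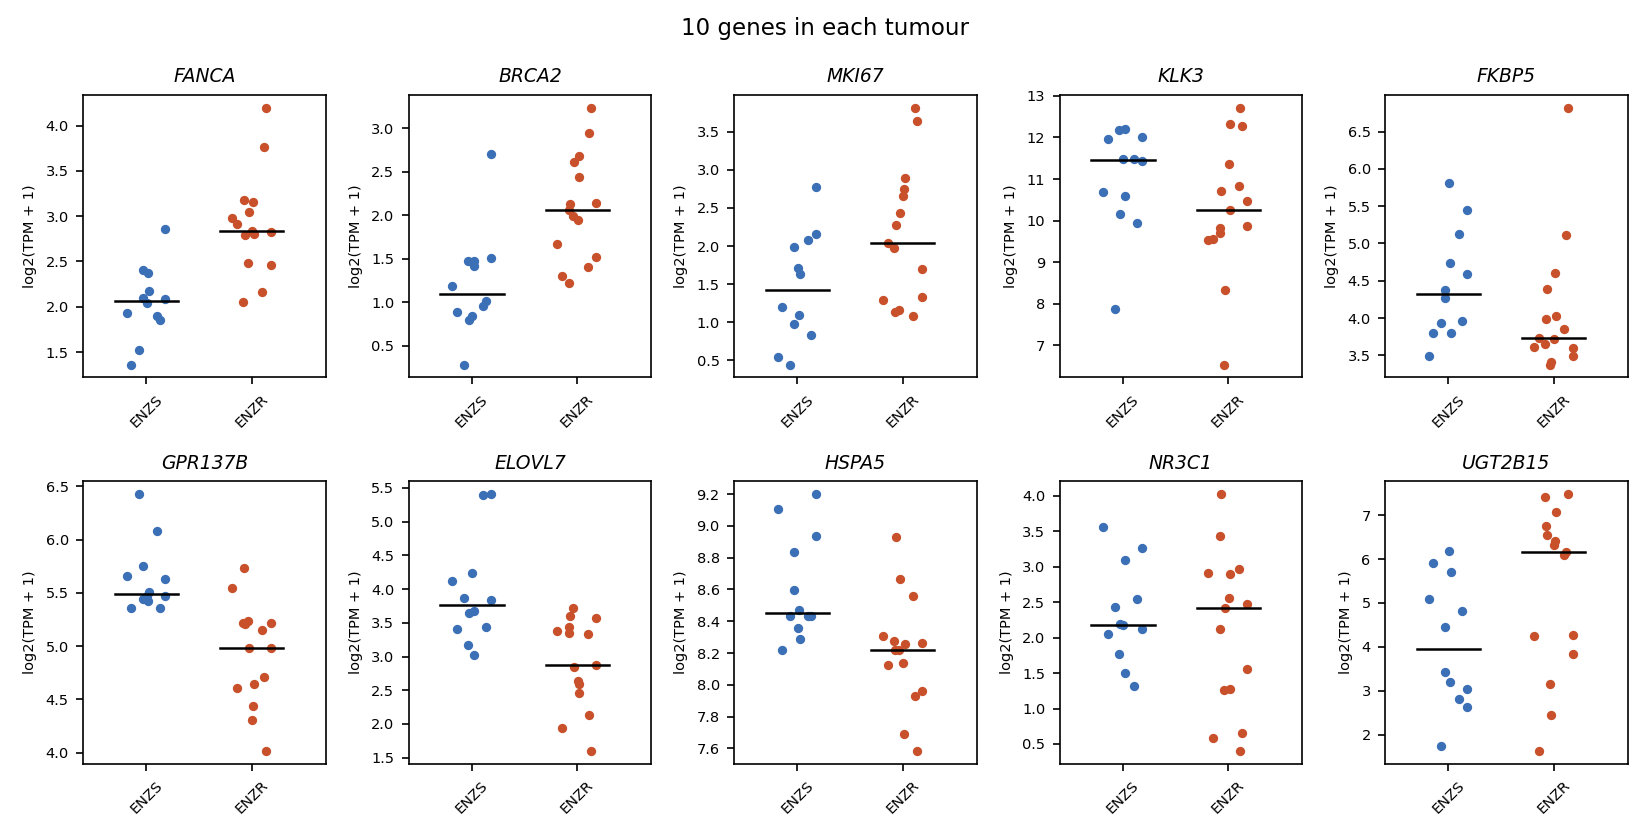
Level of 10 genes in each ENZS (n = 12) and ENZR (n = 15) tumour on the log2(TPM + 1) scale, 1 point per tumour, line at the group median. The ENZR points of FANCA and BRCA2 lie mostly above the ENZS median and those of GPR137B and ELOVL7 mostly below it, while those of KLK3, FKBP5, NR3C1 and UGT2B15 cover a wider range than the distance between the medians.

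Androgen-induced genes mostly had lower means on relapse. Of 33 tested, 4 had a higher and 29 a lower mean in ENZR, where 60.8% of all genes were lower, with a median of -0.25. Among the lower ones 4 were past the unadjusted p, against 5.57% of all genes. With tumour weights 14 were past it, and leaving out 1 tumour gave 2 (without ENZS mouse 101) to 11 (without ENZR mouse 75). The median was negative under every scaling (between -0.44 as deposited and -0.22 with each tumour centred). The family level was 5.59 ± 0.40 in ENZS and 5.31 ± 0.39 in ENZR, against 6.86 in PRE-CX and 5.77 in CRPC. Only mice 75 (6.09) and 104 (5.99) of ENZR were near the highest ENZS tumour (6.14), and 2 relapsed tumours were below the lowest (4.89).

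KLK3, the gene of PSA, was measured at 232 to 4693 TPM in ENZS (median 2803) and at 92.0 to 6704 TPM in ENZR (median 1231). Mice 104 (6704), 94 (5120) and 75 (4991) exceeded every ENZS tumour, mouse 87 (92.0) was below all of them, and 12 of 15 relapsed tumours were below the ENZS median. The difference was -0.71 (SE 0.52, 95% interval -1.77 to 0.36, adjusted p = 0.772). FKBP5, a chaperone cofactor induced by androgen and by glucocorticoid, was measured at 10.3 to 55.2 TPM in ENZS (median 19.0) and 9.39 to 112 TPM in ENZR (median 12.4), and mouse 75 alone made the highest value. Its difference was -0.35 (SE 0.30, adjusted p = 0.801).

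Members with an unadjusted p under 0.05 included PMEPA1, a feedback inhibitor of TGF-beta signalling (-0.63, SE 0.26), the transcription factor MAF (-0.56, SE 0.23) and the methyltransferase GNMT (-0.46, SE 0.16), with adjusted p between 0.609 and 0.653. TMPRSS2, a membrane protease, had an interval that crossed 0 (-0.24, SE 0.26).

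NR3C1 was spread over a wide range within relapse. It was measured at 1.50 to 10.8 TPM in ENZS (median 3.55) and at 0.322 to 15.3 TPM in ENZR (median 4.32), with mouse 103 above and 5 relapsed tumours below the whole ENZS range. Among those 5 were mice 104 (0.322) and 75 (0.569), which had the highest MKI67, and the median in CRPC was 0.626 TPM. The difference was -0.23 (SE 0.34, adjusted p = 0.896), and tumour weights turned it to 0.19. Of 15 glucocorticoid response genes 12 were on the lower side (median -0.23), against 60.8% of all genes. The single one past the unadjusted p, against 5.57% of all genes on the lower side, was ZBTB16 (-0.56, SE 0.20, adjusted p = 0.614). ZBTB16 is a zinc finger factor induced by glucocorticoid and androgen. The median of the glucocorticoid response genes was negative under every scaling.

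Enzymes that conjugate androgens ranged widely from tumour to tumour. UGT2B15, which attaches glucuronic acid to dihydrotestosterone and is named here after its values were seen, was measured at 2.33 to 71.3 TPM in ENZS (median 15.3) and at 2.09 to 178 TPM in ENZR (median 70.1). In ENZR 7 tumours were above the ENZS range and mouse 33 (2.09) was below it. The difference was 1.24 (SE 0.62, 95% interval -0.02 to 2.50, adjusted p = 0.702). UGT2B17 had medians of 39.0 and 145 TPM (difference 0.97, SE 0.70, adjusted p = 0.765), and since the UGT2B genes are close copies, reads may be divided between them in error. STS, the sulfatase that frees steroids from storage, was lower by a difference of -0.37 (SE 0.12, adjusted p = 0.609), with 8 of 15 relapsed tumours below the ENZS range, and SULT2B1, which adds the sulfate, by -0.67 (SE 0.22, adjusted p = 0.609).

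The family with the most members past the unadjusted p on the lower side was that of protein folding in the endoplasmic reticulum, where secreted proteins such as PSA are made. Of 28 genes 26 had a lower mean in ENZR (median -0.16), against 60.8% of all genes, and 10 were past the unadjusted p, against 5.57%. That count was 6 with TPM as deposited and without ENZS mouse 56 or 80. The family level was 6.62 to 7.08 in ENZS and 6.30 to 6.97 in ENZR, and 8 of 15 relapsed tumours lay below every responding one. Under the scalings and tumour weights tried, the median stayed negative, between -0.37 as deposited and -0.12 with tumour weights. The family averaged 6.45 in CRPC and 6.40 in PRE-CX, so ENZR lay between those groups and ENZS.

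HSPA5 was measured at 297 to 587 TPM in ENZS (median 349.6) and 191 to 488 TPM in ENZR (median 297), with 7 relapsed tumours below the ENZS range (difference -0.40, SE 0.13, adjusted p = 0.609). PDIA3, a disulfide isomerase, had medians of 1122 and 929.8 TPM with 8 relapsed tumours below the ENZS range (-0.28, SE 0.09, adjusted p = 0.609). DNAJB9 (-0.55, SE 0.20) and HERPUD1 (-0.35, SE 0.13), which bind and clear misfolded proteins, and CALR, the calcium-binding chaperone calreticulin (-0.19, SE 0.09), had adjusted p between 0.615 and 0.695.

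In the family of ERBB receptors and their ligands, 10 of 11 members had a lower mean in ENZR, against 60.8% of all genes. The 4 members past the unadjusted p, against 5.57% of all genes on the lower side, were all ligands. NRG4 (-0.75, SE 0.24), BTC (-0.60, SE 0.19), TGFA (-0.30, SE 0.11) and HBEGF (-0.54, SE 0.23), all growth factors, measured lower in ENZR, with adjusted p between 0.609 and 0.678. TGFA was measured at 8.80 to 13.5 TPM in ENZS and 4.62 to 11.6 TPM in ENZR, with 8 relapsed tumours below the ENZS range. EGFR had medians of 34.3 and 33.2 TPM (-0.05, 95% interval -0.36 to 0.26), ERBB2 of 175 and 166 TPM (-0.18, interval -0.54 to 0.18) and ERBB3 of 92.4 and 102 TPM (0.04, interval -0.20 to 0.27). The median of the 11 genes was -0.18 and was negative under every scaling and with tumour weights (-0.05). ERBB3 turned to -0.16 as deposited and EGFR to 0.02 among tumours with a human total of at least 700000 TPM. The difference between ligands and receptors was not tested.

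GPR137B, a lysosomal membrane protein (chr1:236142539-236208907), had the lowest p among genes on the lower side with a mean of at least 5 TPM. It was measured at 40.0 to 85.0 TPM in ENZS (median 44.0) and 15.2 to 52.2 TPM in ENZR (median 30.7), and 13 of 15 relapsed tumours were below the whole ENZS range. The exceptions were mice 65 (52.2) and 95 (45.8). The difference was -0.70 (SE 0.15, adjusted p = 0.500), and the median was 21.8 TPM in CRPC and 14.4 TPM in PRE-CX.

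ELOVL7, which elongates very long fatty acids (chr5:60751791-60844269), had the largest difference of the 12 named genes on the lower side. It was measured at 7.10 to 41.5 TPM in ENZS (median 12.5) and 2.03 to 12.2 TPM in ENZR (median 6.31), and all 15 relapsed tumours were below the ENZS median. The difference was -1.04 (SE 0.26, adjusted p = 0.592), beside medians of 67.0 TPM in PRE-CX and 12.3 TPM in CRPC. TAF7, a subunit of the general transcription factor TFIID, had a narrow range in both groups, with 138 to 200.2 TPM in ENZS and 115.8 to 159 TPM in ENZR and 10 relapsed tumours below the ENZS range (-0.28, SE 0.07, adjusted p = 0.592).

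The others were SUN2, which links the nucleus to the cytoskeleton (-0.49, SE 0.12), the ubiquitin ligase RNF13 (-0.40, SE 0.10), PIGH, an enzyme of membrane anchor synthesis (-0.67, SE 0.17), the orphan receptor GPR158 (-0.73, SE 0.18), the pyrophosphate transporter ANKH (-0.65, SE 0.17), the coactivator ZMIZ1 (-0.53, SE 0.14), the giant cadherin FAT1 (-0.62, SE 0.16), the cytokine TNFSF4 (-0.61, SE 0.16) and RPL10L, an intronless copy of RPL10 whose reads may be shared with it (-0.91, SE 0.24). Their adjusted p was 0.592 in each case. P3H2, a collagen prolyl hydroxylase with a mean under 5 TPM that was named after its values were seen, had medians of 3.70 and 0.769 TPM (-1.14, SE 0.24, adjusted p = 0.500). All 15 relapsed tumours were below its ENZS median.

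**Figure D3:**
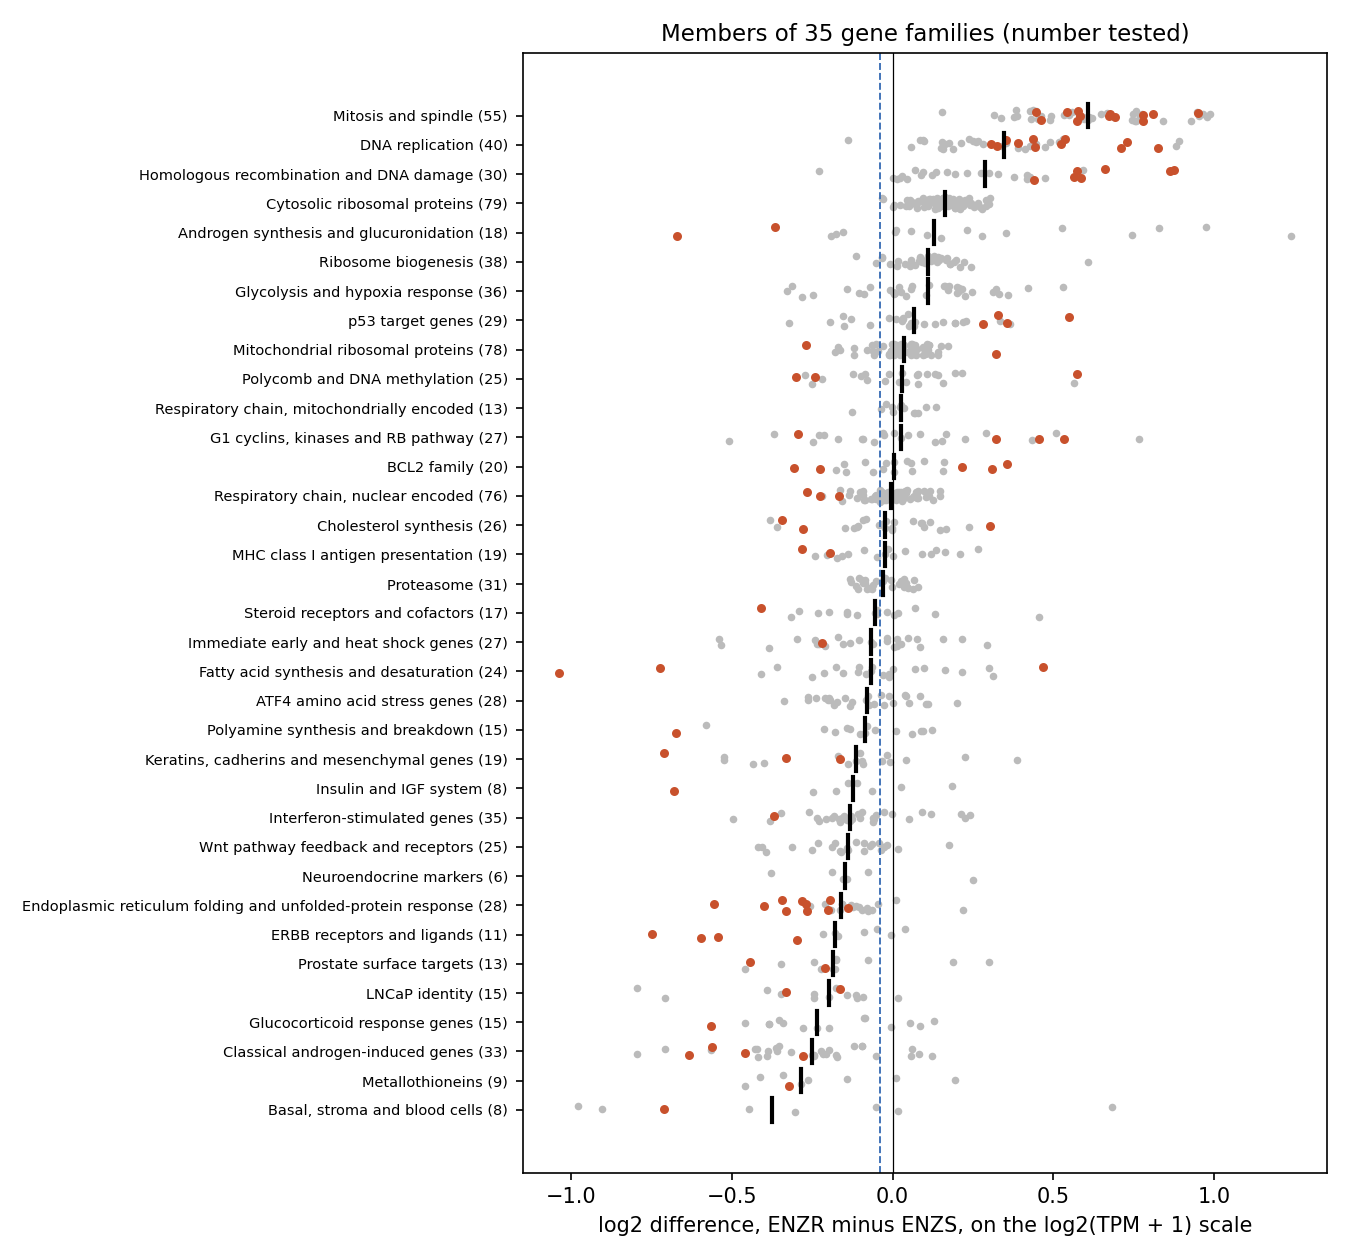
Difference between ENZR and ENZS (log2 units on the log2(TPM + 1) scale) of every tested member of 35 gene families, with the number tested in brackets. Grey points have an unadjusted p of 0.05 or more and red points one under 0.05, black bars are family medians and the dashed line is the median of all genes (-0.04). Medians run from 0.61 for mitosis to -0.37 for the markers of basal, stromal and blood cells, and no point passed an adjusted p of 0.05.

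Most other families lay near the median of all genes. The nuclear genes of the respiratory chain (76 genes, 36 on the higher and 40 on the lower side), the proteasome (31, -0.03), cholesterol synthesis (26, -0.02), the BCL2 family (20, 0.00), and class I antigen presentation (19, -0.02) had medians within 0.05 of 0. Without mouse 87 the median of class I antigen presentation was -0.10, with 16 of 19 genes on the lower side. Some other families were mostly on the lower side, where 60.8% of all genes lay. Among them were genes of the Wnt pathway (23 of 25, median -0.14), interferon-stimulated genes (29 of 35, -0.13) and prostate surface proteins used as drug targets (11 of 13, -0.18). With tumour weights the first and second of these came to -0.01 and -0.02. Among the surface proteins, the adhesion protein ALCAM had the lowest p (-0.44, SE 0.12, adjusted p = 0.592), and STEAP1, a metalloreductase, was measured at 489 to 979.7 TPM in ENZS and 429 to 894 TPM in ENZR. Of 24 neuroendocrine markers in the table only 6 passed the filter, and CHGA, which encodes chromogranin A, was at most 0.494 TPM in any of the 27 tumours.

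For most genes the relapsed tumours had the larger spread. The SD between tumours was larger in ENZR for 73.1% of genes, and the median SD was 0.366 in ENZR and 0.301 in ENZS, beside 0.302 in PRE-CX, 0.298 in CRPC and 0.250 in tumours at the PSA low after castration (POST-CX). Without mouse 87 these values were 68.5% and 0.351. In a Levene-type test with limma on the deviations from the group mean, 1638 genes (9.45%) were past an unadjusted p of 0.05. Of these, 1453 genes (8.38%) were on the wider side and 185 (1.07%) on the narrower side in ENZR. After adjustment 1 gene (0.00577%) passed, SNORA59A, a small nucleolar RNA with a mean of 1.10 TPM in ENZS and 0.124 TPM in ENZR. It was narrower in ENZR (adjusted p = 0.0450), and no gene passed without mouse 87. Its mean in ENZR was under the 1 TPM of the filter, near the floor of log2(TPM + 1), where little spread is possible. The call therefore cannot show that relapsed tumours were more alike in this gene.

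By family, metallothioneins (9 genes that bind zinc and copper) had a median SD of 0.651 in ENZS and 0.987 in ENZR, which came to 0.824 without mouse 87. For DNA replication all 40 genes had the larger SD in ENZR, against 73.1% of all genes. The median SD was 0.328 in ENZS and 0.587 in ENZR (0.585 without mouse 87). For homologous recombination these medians were 0.386 and 0.619, and for mitosis, already variable in ENZS, 0.792 and 1.03. Genes wider in ENZR at an unadjusted p were 6 of 40 for replication, 5 of 30 for homologous recombination and 1 of 9 for metallothioneins. For mitosis they were only 3 of 55, beside 8.38% of all genes. Cholesterol synthesis had median SDs of 0.277 and 0.394 with 24 of 26 genes wider, 5 of them at an unadjusted p, although its mean level differed little. Genes of glycolysis and the hypoxia response went the other way, with 0.714 in ENZS and 0.566 in ENZR and 11 of 36 genes wider. Androgen-induced genes had medians of 0.624 and 0.563, but 20 of 33 were wider in ENZR, against 73.1% of all genes. For class I antigen presentation, the median SD of 0.543 in ENZR came to 0.420 without mouse 87, beside 0.422 in ENZS.

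**Figure D4:**
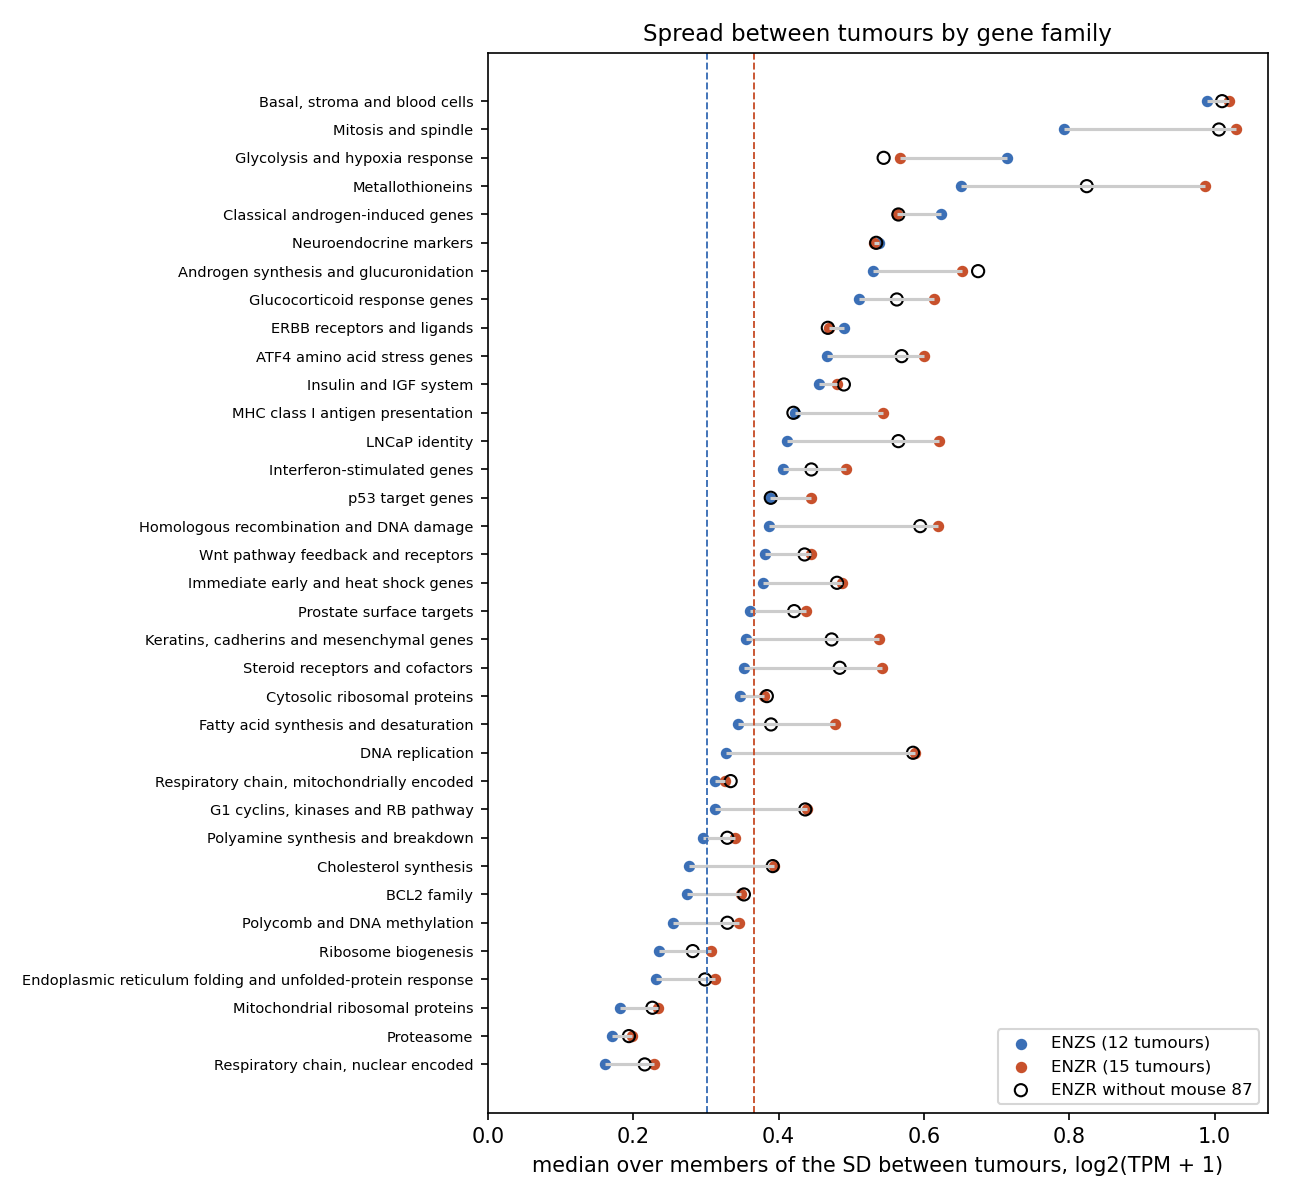
Median over the members of each of 35 gene families of the SD between tumours (log2(TPM + 1) units), for ENZS (blue, n = 12), ENZR (red, n = 15) and ENZR without mouse 87 (open circles), with dashed lines at the medians of all genes (0.301 and 0.366). Most red points lie to the right of the blue ones, by the longest distances for DNA replication and metallothioneins, and glycolysis lies the other way.

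Single genes with unlike spread show the pattern at the level of tumours, and these were named after their values were seen. SLC25A4, which exchanges ADP and ATP across the mitochondrial membrane, was held between 43.7 and 53.8 TPM in all ENZS tumours and ranged from 32.6 to 65.0 TPM in ENZR, with 8 relapsed tumours below and 4 above the ENZS range (SD 0.08 and 0.30, adjusted p = 0.457 for the spread). PIK3AP1, an adaptor of PI3 kinase, ranged from 4.34 to 10.1 TPM in ENZS and from 2.14 to 17.8 TPM in ENZR (SD 0.27 and 0.76, adjusted p = 0.457). PEG3, an imprinted zinc finger gene, was narrower in ENZR, at 1.49 to 5.33 TPM, while it ranged from 1.39 to 74.7 TPM in ENZS, where mice 101 (74.7) and 49 (35.5) stood far above the others.

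Some genes stood far higher in 1 tumour than in the other 26. A gene was counted for a tumour where it was at least 2 log2 units above the next highest of the 27. There were 38 such genes over the 15 ENZR tumours and 9 over the 12 ENZS tumours, with a median of 0 per tumour in both groups and 19 in mouse 87 alone. Mouse 87 is the tumour with the lowest human share of TPM, and the number of human reads behind its values is not known. Without it, 20 genes were counted in ENZR and 9 in ENZS.

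In mouse 87 the genes included CCL20, a chemokine (656 TPM, next highest 13.4), LCN2, an iron-binding protein of inflamed epithelium (989.7 TPM, next 25.9), PIGR, the receptor that carries antibodies across epithelia (270.2 TPM, next 15.8), and NFKBIA (506 TPM, next 87.3) and BIRC3 (239 TPM, next 37.8), both known targets of the factor NF-kB. The level of class I antigen presentation genes was also highest there, at 6.85 against 6.01 or less in ENZS. KLK3 was at its lowest there. The human share of TPM was low and CD68 was high in this tumour, and the part of either in these values was not tested.

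In mouse 72 the set was PTHLH, which encodes parathyroid hormone-related protein (68.9 TPM, next 7.61), the transcription factor PAX1, and CFAP126 (24.0 TPM, next 2.94), CFAP157 (11.7 TPM, next 1.86) and ZMYND10 (22.1 TPM, next 3.81), which are genes of motile cilia. In mouse 75 it was MSMB (59.8 TPM, next 6.03) and CRISP3 (98.7 TPM, next 15.0), both secreted by prostate epithelium, with MYBPC1 and the lipid transporter ABCA12. Genes at least 2 log2 units below the next lowest tumour numbered 38 over the ENZR tumours and 10 over the ENZS tumours. Mouse 87 had 15 of them, mostly at 0 TPM, mouse 21 had 11 and mouse 75 had 8. Those of mouse 75 included MME, a membrane peptidase (26.2 TPM, next 374), ETV1, an ETS factor (4.13 TPM, next 30.3), JAG1, a Notch ligand (13.0 TPM, next 59.1), and TMEFF2 (2.97 TPM, next 21.0). In mouse 21 the germ cell antigen MAGEA4 was at 231 TPM, with 9.54 TPM next.

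Responding tumours had such genes too. In ENZS mouse 101 it was the prostaglandin receptor PTGFR (133 TPM, next 6.76), in mouse 76 the intestinal factor ISX (47.4 TPM, next 3.38) and in mouse 17 ANGPT2, an angiogenesis factor (118.5 TPM, next 24.2). ENZS mouse 49 had 9 genes far below all other tumours, among them PSMD5, a proteasome assembly factor (0.109 TPM, next 17.6), CTSC, a lysosomal protease (0.120 TPM, next 9.22), and MAP1LC3A, a marker of autophagosomes (0.185 TPM, next 5.43). These patterns rest on 1 tumour each and have no replicate.

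Whether tumours with more MKI67 also had more of 2 androgen-induced genes was asked within each group, over 4 relations. Across the 15 ENZR tumours, MKI67 and KLK3 had a Pearson r of 0.671 (permutation p = 0.00584, adjusted p = 0.0117) and a Spearman rho of 0.575 (permutation p = 0.0277, adjusted p = 0.0369). MKI67 and FKBP5 had an r of 0.719 (permutation p = 0.00125, adjusted p = 0.00500) and a rho of 0.575 (permutation p = 0.0277, adjusted p = 0.0369). Leaving out mice 75 and 104, the 2 tumours farthest from the median of MKI67, r was 0.459 for KLK3 (permutation p = 0.114) and 0.440 for FKBP5 (permutation p = 0.135), so r stayed positive and no longer passed the threshold. All these values of r include mouse 87, where the human share of TPM, KLK3 (92.0 TPM) and FKBP5 (9.39 TPM) were at their lowest. Mice 72 and 33 had MKI67 at or above the ENZR median with KLK3 of 323 and 753 TPM. Mouse 100, with the fourth highest MKI67 of ENZR, had 1231 TPM.

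Across the 12 ENZS tumours, r was 0.618 for KLK3 (permutation p = 0.0279, adjusted p = 0.0279) with a rho of 0.566 (permutation p = 0.0589, adjusted p = 0.0589). For FKBP5 r was 0.682 (permutation p = 0.0147, adjusted p = 0.0195) and rho 0.664 (permutation p = 0.0221, adjusted p = 0.0369). Without mice 45 and 49 r was 0.562 (permutation p = 0.0922) and 0.565 (permutation p = 0.0884), and neither passed the threshold. The tests were two-sided with 100000 resamples.

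**Figure D5:**
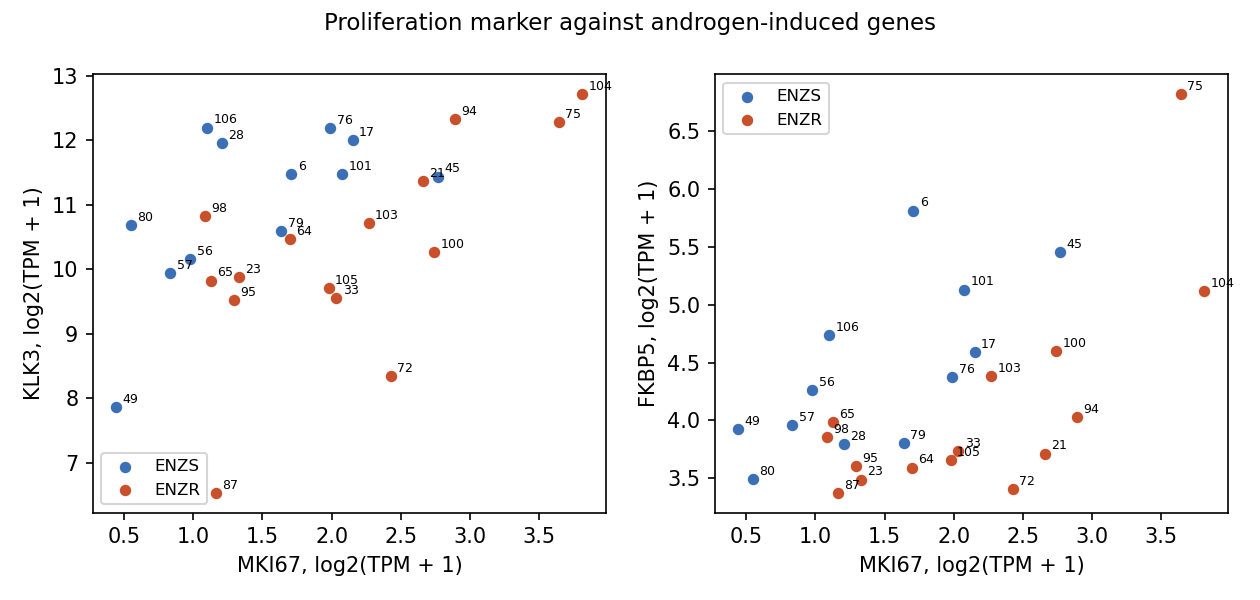
MKI67 against KLK3 (left) and FKBP5 (right) in each ENZS (blue) and ENZR (red) tumour, all on the log2(TPM + 1) scale, labelled with the mouse number. Mice 75 and 104 lie at the upper right in both panels, and mouse 87 has the lowest KLK3 and FKBP5.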

How the data were processed

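Poly(A) RNA of 27 xenografts was sequenced by the authors with about 40 M read pairs of 125 bases per sample. The deposited TPM were made by the authors with RSEM 1.3.3 after FastQC 0.11.9, Trim Galore 0.6.5 and STAR 2.7.2b (submitters' processing notes), on joined human and mouse genomes (GRCh38 and GRCm38), and the table holds human genes. Read counts per tumour are not given in the sources used here, so no counting error is stated. Each tumour was rescaled to the same total, log2(TPM + 1) was taken, and 17342 genes with at least 1 TPM in at least 6 tumours were kept. ENZR and ENZS were compared with limma 3.58.1 (trend, R 4.3.3) and Benjamini-Hochberg adjustment, with calls at an adjusted p under 0.05 and a log2 difference of at least 1. The fold on this scale understates low genes. Spread was tested with limma on absolute deviations from the group mean. Relations used permutation tests (scipy 1.17.1), adjusted over 4. Scripts were tested on simulated data. Tumours were from separate mice, so p-values measure the spread between mice, and the labels give no batch. The named genes were a panel of androgen response, proliferation and ERBB genes, the 12 lowest p in each direction with a mean of at least 5 TPM, up to 4 members per list with the lowest unadjusted p under 0.05 (CALR through the list of antigen presentation), and others said to be named after their values were seen. The members and the 35 gene lists were chosen with earlier results of these data known. Promoters and positions came from RefSeq (GRCh38.p14), which matched 14192 tested genes. Some genes that this rule names are not reported here.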

Additional observations from a re-analysis of the deposited data

How the results depend on the processing

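No gene passed the adjusted test of level under any of 9 other settings or when any 1 of the 27 tumours was left out, and the lowest adjusted p over these was 0.0745 (P3H2). The 272 genes higher at an unadjusted p became 38 with TPM as deposited, 524 with each tumour centred on its median, 754 with tumour weights, 502 with no filter on low values, and 443 or 422 with tumours of a human total of at least 300000 or 700000 TPM. With no filter, 2012 genes were past the unadjusted p, 1510 of them lower, against 1238 and 966. The 1 gene called for spread became 0 with TPM as deposited, with centring, with a pseudocount of 0.1, with 1 TPM in at least 12 tumours, and at either total. With no filter on low values 1037 of 38046 genes were called for spread, 55 of which pass the filter, and 4174 were wider and 3473 narrower at an unadjusted p. The narrower ones were 40 with TPM as deposited. Genes far above in 1 tumour were 24 in ENZR and 18 in ENZS as deposited, and 20 in ENZR without mouse 87, alternatives chosen after seeing the data. The cause of these shifts was not tested. Leaving out 1 tumour gave 952 to 1773 genes at an unadjusted p, 175 to 465 higher and 727 to 1398 lower, 0 to 2 called for spread, and 1155 to 1690 wider and 150 to 256 narrower. Signs turned as deposited for ERBB3 (-0.16), PIK3AP1 (-0.0096) and ABCC5 (-0.11), for NR3C1 with tumour weights (0.19), and for EGFR at 700000 TPM (0.018). Leaving out 1 tumour gave EGFR -0.11 to 0.014, PIK3AP1 -0.011 to 0.17 and PSMD5 -0.071 to 0.39. No paired analysis was possible because the groups share no mouse number. TPM give no read depth per tumour, and mouse 87 had the lowest human share of TPM.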
